A study of Mus musculus with 586 samples.

Results

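The posterior epiblast of the mouse embryo was followed from E5.5 to E7.5, the days in which the primitive streak forms. The libraries were those whose column code is P, a letter that the labels leave unexplained and that is read here as the posterior side of the epiblast, following the atlas published from this series. There were 117 such libraries of 586 samples. They came from 16 embryos: 10 libraries of 2 embryos at E5.5, 8 of 2 at E6.0, 37 of 6 at E6.5, 22 of 2 at E7.0 and 40 of 4 at E7.5 (embryos 3 to 6). All embryos were of the C57BL/6 strain, without a treatment or a mutation in the labels. Each library was made by Geo-seq, in which a few cells are laser-captured from a cryosection and their RNA is amplified and sequenced, so that a sample is a small patch at a known section of the embryo. Sections are numbered from the distal tip of the embryo upwards, by that atlas. P libraries start at section 2 up to E6.5, where section 1 is coded A/P, and at section 1 at E7.0 and E7.5. The embryo was the replicate, and the labels do not pair embryos of different stages. The 81 libraries coded A (anterior side) of the same sections were the comparison where one is given.

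The epiblast is the cup of pluripotent cells that gives rise to the embryo proper. On its posterior side, WNT3, NODAL and BMP signals turn on Brachyury (T), EOMES and MIXL1, cells leave the epithelium through the primitive streak, and the first of them become MESP1-positive mesoderm. Later the streak and the epiblast beside it feed the growing trunk: CDX and HOX genes, WNT3A and FGF4/FGF8 mark this region, while TBX6 and MSGN1 mark the paraxial mesoderm that leaves it.

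A few promoters of these genes are shown because the genes turned on at successive stages and because the WNT and T-box factors named above act through short DNA motifs. T rose from E6.0 on, Sp5 with it, Tbx6 from E6.5 to E7.0 and Msgn1 from E7.0 to E7.5. The sequences are the 250 bases before the start of each gene, 5′ to 3′ on the gene's own strand, from RefSeq (GRCm38.p6). Capitals mark a match, on either strand, to one of 3 short motifs. One is the core of the TCF/LEF motif, through which WNT signals act, with the letters CTTTGA. The others are a T-box site with the letters AGGTGT and a site of the NODAL effector FOXH1 with the letters AATACA. No matches overlap.
T, chr17:8434173-8434422, plus strand: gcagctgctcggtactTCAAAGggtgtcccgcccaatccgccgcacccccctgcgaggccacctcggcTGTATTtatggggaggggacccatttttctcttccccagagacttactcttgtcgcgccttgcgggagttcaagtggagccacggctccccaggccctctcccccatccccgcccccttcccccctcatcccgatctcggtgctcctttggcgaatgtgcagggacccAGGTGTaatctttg
Sp5, chr2:70474673-70474922, plus strand: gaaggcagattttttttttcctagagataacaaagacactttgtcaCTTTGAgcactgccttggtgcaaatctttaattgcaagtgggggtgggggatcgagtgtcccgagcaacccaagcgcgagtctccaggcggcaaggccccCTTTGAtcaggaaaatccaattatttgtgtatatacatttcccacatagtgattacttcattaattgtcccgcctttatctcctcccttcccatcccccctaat
Tbx6, chr7:126781233-126781482, plus strand: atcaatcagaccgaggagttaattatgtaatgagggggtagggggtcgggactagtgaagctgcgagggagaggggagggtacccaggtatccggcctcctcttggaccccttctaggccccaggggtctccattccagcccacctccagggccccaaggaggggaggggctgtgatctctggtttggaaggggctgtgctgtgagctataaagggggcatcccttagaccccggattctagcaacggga
Msgn1, chr12:11208949-11209198, minus strand: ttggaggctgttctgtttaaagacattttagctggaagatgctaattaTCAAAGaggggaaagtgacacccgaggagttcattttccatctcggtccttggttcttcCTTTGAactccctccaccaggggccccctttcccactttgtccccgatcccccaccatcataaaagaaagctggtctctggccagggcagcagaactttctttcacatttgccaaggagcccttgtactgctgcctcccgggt
The T promoter held 1 match to each motif, those of Sp5 and Msgn1 held 2 TCF cores each, and that of Tbx6 held none. The TCF core lay in 13.8% of 32851 promoters of this length, the T-box site in 11.8% and the FOXH1 site in 9.47%. Of the 21 streak and mesoderm genes that rose between consecutive stages from E6.0 on, 16 had a promoter that was searched. That search left out 1 chromosome, whereas the shares above left out none and count promoters, not genes. The TCF core was in 4 of the 16 (Frzb, Msgn1, Sp5 and T), the T-box site in 5 (Aldh1a2, Evx1, Frzb, Nodal and T) and the FOXH1 site in 2 (Mesp2 and T). These matches describe letters and not bound sites. Other genes the results turn on lie, in GRCm38 with GENCODE M21, at chr1:180693043-180697034 (Mixl1), chr9:118478212-118486132 (Eomes), chr7:79792241-79793788 (Mesp1), chr5:147300805-147307270 (Cdx2), chr14:48657677-48673819 (Otx2), chr7:139943789-139945112 (Utf1) and chr19:3409915-3414544 (Gal).

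The files give FPKM, so the reads behind a value are unknown here. The number of genes at 1 FPKM or more was 3582 to 7644 per library at E5.5, 8528 to 10532 at E6.0, 6739 to 9904 at E6.5, 7652 to 10536 at E7.0 and 7204 to 10209 at E7.5, so E5.5 lay below the range of E6.0. Levels below are FPKM rescaled to a sum of 1000000 and averaged over the P libraries of an embryo. Differences are of log2(rescaled FPKM + 1), which understates the change of low genes, with the standard error of limma. The log2 values were averaged over libraries, so a gene high in few sections of an embryo has a difference other than the ratio of the printed levels. A gene is said to have risen or fallen where limma's Benjamini-Hochberg adjusted p was under 0.05 over 14594 genes both with library sums and with library medians set equal. The printed difference and p are of equal sums. Where a gene was listed at 0 in a stage, the difference depends on the added 1, and no fold is given. Consecutive comparisons share the embryos of the middle stage. In samples of several cells, fewer cells of a type and less RNA per cell cannot be told apart.

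Some libraries stood apart. In section 5 of E6.0 embryo 1 the epiblast genes were nearly missing, with Pou5f1 at 7.98 against 327 to 615 in the other sections of that embryo and Utf1 listed at 0. The same library held Col3a1, Vim and Dcn, genes of fibroblasts and decidua, and the haemoglobin gene Hba-a1, which put the embryo's mean at 231 for Col3a1 and 1140 for Hba-a1. Section 5 of E6.5 embryo 4 lacked streak genes that its neighbours held: T was 0.938 there, against 38 in section 4 and 134 in section 6. In section 1 of E7.5 embryo 6, the small RNA gene Scarna3b took 71.9% of the sum. Leaving out each of these 3 libraries in turn, a choice made after seeing the data, gave 1591 to 1970 called genes from E5.5 to E6.0, 42 to 61 from E6.0 to E6.5, 104 to 119 from E6.5 to E7.0 and 60 to 73 from E7.0 to E7.5, beside the 1975, 43, 109 and 63 of all libraries. In E5.5 embryo 1, section 3 had the fewest genes at 1 FPKM or more of all P libraries, 3582. Epiblast markers (5 genes: Pou5f1, Utf1, Fgf5, Otx2 and Dnmt3b) were followed by their summed level. It was 912 to 1350 at E5.5, 1190 to 1780 at E6.0 and 918 to 1930 at E6.5. At E7.0 it was 1040 to 1200 and at E7.5 it was 618 to 906. The sum at E7.5 was mostly Pou5f1 and Dnmt3b, since Otx2, Utf1 and Fgf5 were at most 4.96, 5.66 and 8.94 there. Markers of visceral endoderm, the layer that wraps the epiblast, summed to 543 to 606 at E5.5, 66.7 to 338 at E6.0 and at most 73.4 later. Without its section 5, E6.0 embryo 1 was at 450 in this sum and at 1590 in the epiblast sum. Decidua and blood markers reached 1940 at E6.0 (205 in that embryo without its section 5) and 2450 at E7.5.

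**Figure D1:**
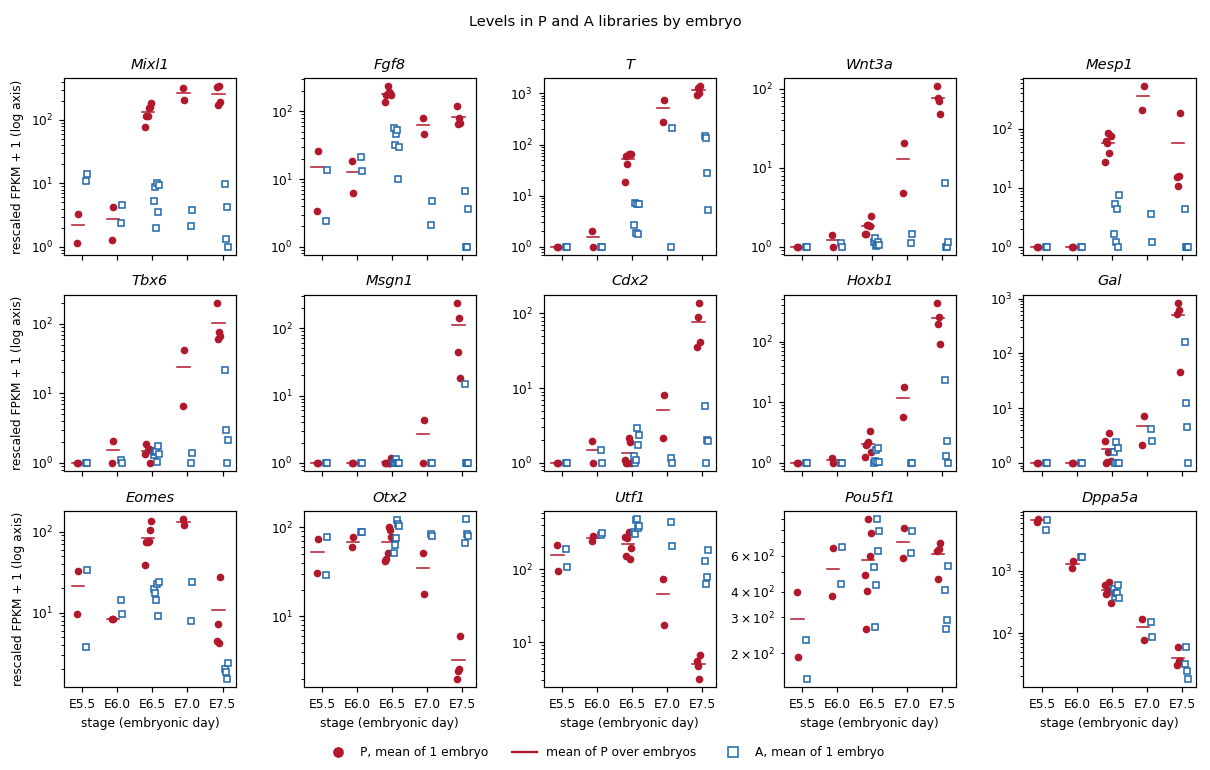
Levels of 15 genes in each embryo, as rescaled FPKM + 1 on a log axis, by stage. Filled circles are P means of single embryos, short horizontal lines are the stage means of P, and open squares are the A means of the same embryos. T climbed from 0 at E5.5 to 922 to 1370 at E7.5, whereas Pou5f1 stayed between 190 and 905 throughout.

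From E5.5 to E6.0, apolipoprotein and other visceral endoderm genes fell together with Dppa5a and Dnmt3l of the early epiblast, and a large number of genes of many kinds rose. In all 1863 genes rose (12.8% of those tested) and 112 fell (0.767%). The excess of higher genes went with the larger number of genes detected at E6.0, and the part of that in the calls was not tested. With only the 4 embryos of these 2 stages in limma's fit, 0 genes passed (1607 at an unadjusted p under 0.05 in both scalings), so the calls rest on the spread estimated over all 16 embryos. With FPKM as deposited 330 genes passed. The median gene was higher by 0.62 with equal sums and 0.36 with equal medians, and changes are best read against that shift.

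Among the genes that fell were some of the early epiblast. Dppa5a, an RNA-binding protein of pluripotent cells, was at 6230 and 6890 at E5.5 and 1120 and 1470 at E6.0. These groups did not overlap, and the difference was -3.07 ± 0.48 (adjusted p = 0.00052). In 1 of the 8 E6.0 libraries Dppa5a was only 7.16, and without section 5 of E6.0 embryo 1 the difference was -2.13, which still passed. Dnmt3l, the cofactor of the de novo DNA methyltransferases, went from 47.1 and 96.4 to 7.85 and 6.77, a difference of -2.72 ± 0.65 (adjusted p = 0.00756) that did not hold without E5.5 embryo 2 or without E6.0 embryo 1. Nanog, the homeobox gene of pluripotent cells, was at 85.7 and 126 and then at 52.8 and 39.6. Its adjusted p was 0.0478, and the call was lost without any 1 of the 4 embryos. Of the core and primed pluripotency list, 1 of 23 genes rose and 2 fell (Nanog and Dppa4), but without section 5 of E6.0 embryo 1 neither fall passed. Pou5f1 itself (396 and 190, then 382 and 650) overlapped between the stages with that section included. The 382 of E6.0 embryo 1 averages 7.98 in section 5 with 327 to 615 in its other sections.

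The metallothionein genes Mt1 and Mt2, which bind zinc and copper, fell in 2 of the consecutive comparisons. Mt2 was at 1380 and 921 at E5.5, at 270 and 273 at E6.0, at 153 to 438 (median 190) at E6.5, at 20.5 and 23.4 at E7.0 and at 16.3 to 49.7 at E7.5. Its falls from E5.5 to E6.0 (-2.89 ± 0.55, adjusted p = 0.00193) and from E6.5 to E7.0 (-4.07 ± 0.45, adjusted p = 2.63e-05) passed, the former not without E6.0 embryo 1 and the latter not without E7.0 embryo 2. Without section 5 of E6.0 embryo 1 alone, the fall of Mt2 from E5.5 to E6.0 was -1.85 and still passed, and that of Mt1 no longer did.

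Visceral endoderm genes were also among the falls. Of 28 tested, 8 fell (Ttr, Apoa1, Apoa4, Apob, Apoc2, Apom, Amn and Cubn) and none rose, with a median of -0.93 (-1.16 with equal medians). Apoa4, an apolipoprotein, was at 49.6 and 41.4 at E5.5 against 10.8 and 1.53 at E6.0 (-3.12 ± 0.44, adjusted p = 0.000265). On the anterior side it was at 69.6 and 48.9 and then at 15.5 and 2.52. Without section 5 of E6.0 embryo 1, 6 of the 28 fell. Visceral endoderm lies against the epiblast at these stages, and the part of such cells in the captured patches was not tested. By the labels, E6.0 embryo 2 had separate samples coded VE, read here as visceral endoderm. The E5.5 embryos and E6.0 embryo 1 had none. Apoa1 was at 295 and 332 at E5.5, at 245 in E6.0 embryo 1 and at 43.5 in E6.0 embryo 2. Whether the separate capture took part in the falls was not tested.

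Among the genes that rose were 6 of 20 of the NODAL pathway, beside 12.8% of all genes tested. They were Cfc1, a co-receptor, the receptor Acvr2a, the effector Smad3, its DNA-binding partner Foxh1, and the proteases Furin and Pcsk6 that ripen the ligand. Without section 5 of E6.0 embryo 1, 4 of the 20 rose. Foxh1 went from 17.9 and 4.95 to 19.3 and 32.3 in P. On the anterior side it went from 0 and 1.5 to 24.8 and 47.6. Smad3 went from 0.13 and 0.299 to 4.44 and 2.62 (1.71 ± 0.36, adjusted p = 0.0036). The ligand Nodal did not pass: it was at 13.2 and 19.3, then at 4.97 and 5.18. Mesenchymal genes rose in 5 of 20 cases (Cdh2, Mmp14, Vcan, Col1a2 and Col3a1), but in 1 of 15 tested without the library that held fibroblast genes, where Col3a1 otherwise was 0.525 in E6.0 embryo 2. Of 20 glycolysis genes 3 rose, a share near the 12.8% of all genes. Eno1, a glycolytic enzyme among the 3, went from 103 and 52.1 to 897 and 459 (3.57 ± 0.75, adjusted p = 0.0059).

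Hilpda and Trh were among the genes with the largest rises. Hilpda, a lipid droplet protein induced by low oxygen, went from 4.11 and 3.94 to 68.8 and 62 (4.91 ± 0.47, adjusted p = 1.04e-05). Trh, the precursor of thyrotropin-releasing hormone, went from 9.29 and 0 to 42.4 and 62.6 (4.56 ± 0.60, adjusted p = 0.00013) and was at 180 to 414 (median 273) at E6.5, a further rise of 2.72 ± 0.49 (adjusted p = 0.012). Without section 5 of E6.0 embryo 1 these rises were 5.28 and 2.00, and both passed. From E6.5 to E7.5 it fell by 2.40 ± 0.39 (adjusted p = 0.000241), to 33.5 to 155.

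Between E6.0 and E6.5 the first streak genes came on. Of the 14594 genes, 23 rose (0.158%) and 20 fell (0.137%), and 11 of the 23 were in the primitive streak list of 30 genes: T, Mixl1, Eomes, Evx1, Fgf8, Wnt3, Wnt8a, Nodal, Fst, Sp5 and Apln. None of that list fell. Its median difference was 1.91 (2.04 with equal medians), beside -0.09 (0.04) for all genes tested. Without section 5 of E6.0 embryo 1, 12 of the list rose and 1 fell.

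Mixl1, a paired-type homeobox gene, was at 0.277 and 3.23 at E6.0 and at 75.8 to 185 (median 132) at E6.5. All 6 later embryos lay above both earlier ones, by 4.59 ± 0.43 (adjusted p = 7.15e-06). T, the T-box gene that defines the streak, was at 1.07 and 0, then at 17.4 to 65.7 (median 60.8), again without overlap, by 3.70 ± 0.49 (adjusted p = 0.000486). Fgf8, which streak cells need to migrate away, was at 17.8 and 5.32 and then at 136 to 232 (median 179), by 4.24 ± 0.47 (adjusted p = 3.96e-05). These 3 genes passed in every alternative fit and without any 1 embryo.

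Calls of the other streak regulators depended more on single embryos. Wnt3, the ligand required for streak formation, was at 0.0521 and 1.13 and then at 6.99 to 20.2 (median 18.1), a rise of 3.12 ± 0.46 (adjusted p = 0.00144). Wnt8a, listed at 0 in both E6.0 embryos, was at 4.01 to 10.5 (median 8), with a difference of 2.50 ± 0.45 (adjusted p = 0.012). Nodal was at 4.97 and 5.18, then at 20.2 to 45.1 (median 38.8), a rise of 2.91 ± 0.47 (adjusted p = 0.00367). Each of these 3 calls was lost without E6.0 embryo 1 and kept without any other 1 embryo. The rise of Eomes, from 7.43 and 7.38 to 37.7 to 134 (median 75.4), was 3.19 ± 0.63 (adjusted p = 0.0295) and was kept in only 2 of the 8 fits that left out 1 embryo. It was also lost without section 5 of E6.0 embryo 1.

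Fst, which encodes the activin-binding protein follistatin, was at 12.6 and 2.59 and then at 51 to 137 (median 116), a rise of 3.71 ± 0.54 (adjusted p = 0.00162) that held without any 1 embryo. Of the posterior axis list, 6 of 18 genes rose, and in the WNT ligand and receptor list 2 of 25 did, Wnt3 and Wnt8a. Mesp1, the marker of nascent mesoderm, was listed at 0 in both E6.0 embryos and was at 26.1 to 85.6 (median 58.3) at E6.5, yet its adjusted p was 0.403. Snai1, which represses E-cadherin in the streak, was at 8.62 and 0.71 and then at 11.6 to 39.1 (median 29.9), with an adjusted p of 0.1. Cdh1, E-cadherin itself, was at 45.1 and 96.9 and then at 25.3 to 50.7 (median 34.4), with overlap. The 45.1 includes section 5 of E6.0 embryo 1, where Cdh1 was listed at 0, against 53.4 to 64.7 in its other sections. For Snai1 that section was at 32, against 0.81 to 0.873 in the others. The embryos of the 2 stages did not overlap in Mesp1 and Snai1, and neither gene passed the test.

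Dppa2 and Dppa4, chromatin factors of early pluripotent cells, fell by 3.03 ± 0.52 (adjusted p = 0.00835) and by 2.78 ± 0.53 (adjusted p = 0.0192). Dppa4 was at 24.1 and 50.5 in the E6.0 embryos and at most 5.63 in those of E6.5, and without section 5 of E6.0 embryo 1 its fall was -3.39. Sfrp1, a secreted WNT antagonist, was at 20.2 and 15.1 and then at 2.07 to 4.15, a fall of 2.04 ± 0.33 (adjusted p = 0.00417) that was lost without E6.0 embryo 1. Stc1, a secreted glycoprotein that had risen from E5.5 to E6.0, fell again, from 11.6 and 10.8 to 0.148 to 2.1. Without E6.0 embryo 2 the comparison gave 440 genes in place of 43, 412 of them lower.

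The rise of the streak genes was graded along the embryo. At E6.5, T was at most 7.22 in section 2 of every embryo and at 65.9 to 204 in the last section captured. Mesp1 was at most 0.34 in section 2 and at 123 to 333 in the last section. Eomes reached further down, with 5.87 to 32.9 in section 2 and 78.8 to 160 in the last. In the same libraries Utf1, a chromatin factor of epiblast cells, ran the other way, at 235 to 589 in section 2 and 26.5 to 118 in the last section. Section 5 of embryo 4, named above, broke the gradient of T, and its Utf1 was 460.

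**Figure D2:**
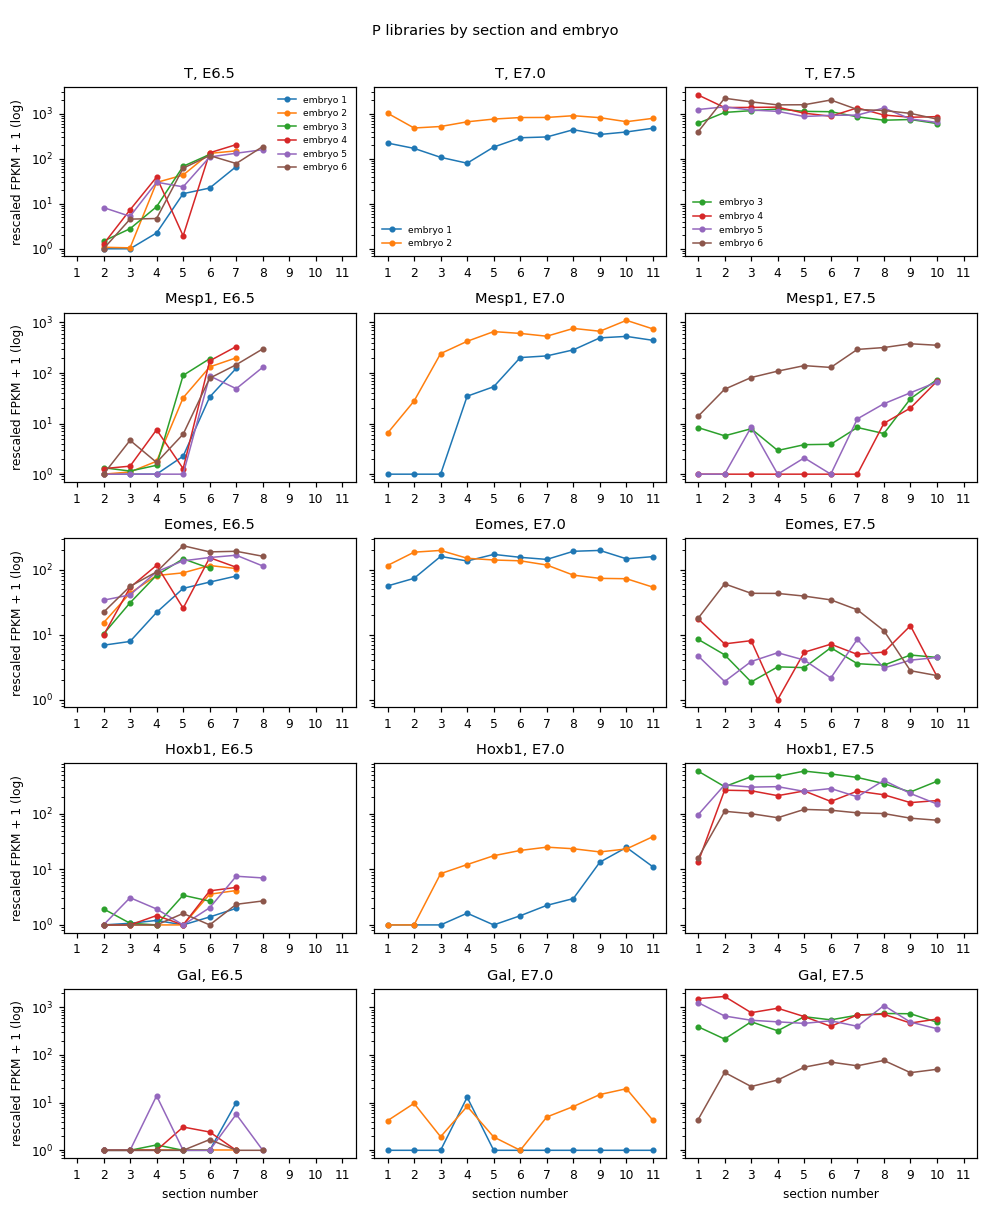
Rescaled FPKM + 1 (log axis) of T, Mesp1, Eomes, Hoxb1 and Gal by section number, from the distal tip upwards, in each P library at E6.5, E7.0 and E7.5, with 1 line per embryo. T climbed to 65.9 to 204 in the last sections at E6.5 and was at 78.3 or more in every section at E7.0.

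From E6.5 to E7.0, T and its neighbours in the streak programme rose further and the first paraxial mesoderm genes appeared, while some epiblast genes fell. There were 75 higher genes (0.514%) and 34 lower ones (0.233%). Only 2 embryos stand for E7.0 and they differed: without E7.0 embryo 2 the total of 109 fell to 10, and without E7.0 embryo 1 it was 49. Without E6.5 embryo 3 it was 56 and without E6.5 embryo 4 it was 63. T, Sp5, Aplnr and Ifitm1 were called without each of the 8 embryos in turn and in every alternative fit.

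T was at 272 and 746 at E7.0, above all 6 embryos of E6.5, by 4.70 ± 0.49 (adjusted p = 1.3e-05). Sp5, a zinc-finger gene switched on by WNT signals, was at 6.18 to 13.3 (median 10.4) and then at 38.3 and 87.9, by 3.47 ± 0.36 (adjusted p = 1.3e-05). Aplnr, the apelin receptor of migrating mesoderm, was at 0.896 to 2.93 (median 2.22) and then at 21.4 and 60.3, by 3.90 ± 0.40 (adjusted p = 1.3e-05). Neither gene overlapped between the stages. Ifitm1, a membrane protein of streak and mesoderm, was at 52.7 to 78.2 (median 69.2) and then at 492 and 651, by 3.02 ± 0.29 (adjusted p = 1.29e-05).

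Of the primitive streak list 6 of 30 genes rose and none fell, with a median of 1.58 (1.44), beside 0.12 (-0.02) for all genes. Mixl1 was at 315 and 207, a rise of 2.06 ± 0.43 (adjusted p = 0.0207) that was lost without either E7.0 embryo. Wnt3a, the WNT ligand of the later streak, was at 0.461 to 1.46 (median 0.851) and then at 3.86 and 19.9 (2.30 ± 0.47, adjusted p = 0.0182). Frzb, a secreted WNT antagonist, was at 4.3 to 15 (median 12) and then at 59.1 and 118 (3.12 ± 0.45, adjusted p = 0.000818). Fgf8 moved the other way without passing, at 78.2 and 44.8 after 136 to 232, with an adjusted p of 0.221.

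Among the nascent and paraxial mesoderm genes, 3 of 20 rose and none fell. Tbx6, the T-box gene of paraxial mesoderm, was at 0 to 0.905 (median 0.523) and then at 5.65 and 40.7 (2.98 ± 0.55, adjusted p = 0.00954). Dll1, the Notch ligand of the presomitic mesoderm, was at 0.0133 to 0.765 and then at 8.41 and 27 (3.17 ± 0.41, adjusted p = 0.000226). Mesp2 was at 1.11 to 6.22 (median 3.94) and then at 26.6 and 54.1 (3.02 ± 0.51, adjusted p = 0.0035). In all 3 genes embryo 2 was the higher of the E7.0 embryos, and each call was lost without it. Mesp1 was at 205 and 524, above all E6.5 embryos, but its adjusted p was 0.227.

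Of the mesenchymal list 4 of 20 genes rose: Cdh2, Fn1, Zeb2 and Cdh11. Cdh2, N-cadherin, was at 1.36 to 4.04 (median 2.78) and then at 12.3 and 18.2 (2.05 ± 0.36, adjusted p = 0.00477), while Cdh1 stayed at 39.3 and 55.2 with an adjusted p of 0.926. In the epithelial list only Crb3, an apical polarity gene, fell (-2.30 ± 0.45, adjusted p = 0.0148), 1 of 21. Genes of the node, the organiser at the front of the streak, rose in 3 of 16 cases. Section 1, the distal tip, is among the P libraries at E7.0 but not at E6.5, so the sections compared differ there. Chrd, a BMP antagonist of the node, was at 0.605 to 1.77 and then at 35.4 and 46.7 (2.27 ± 0.30, adjusted p = 0.000325). Foxj1 and Noto, which drive ciliated node cells, rose by 1.53 ± 0.34 (adjusted p = 0.0281) and by 1.51 ± 0.33 (adjusted p = 0.0233), each lost in most fits without 1 embryo.

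Genes of the primed epiblast were among those that fell. Utf1 was at 138 to 326 (median 229) and then at 71.9 and 16.4 (-3.19 ± 0.50, adjusted p = 0.00151). Pou3f1, a POU factor of the epiblast and later of the neural plate, was at 16.5 to 39.2 (median 29.8) and then at 4.27 and 2.59 (-2.91 ± 0.38, adjusted p = 0.000277). Slc7a3, an arginine transporter of pluripotent cells, was at 34.7 to 145 (median 82.9) and then at 24.6 and 12.2 (-2.37 ± 0.53, adjusted p = 0.0315). These 3 of 23 pluripotency genes fell and none rose, and the calls of Utf1 and Pou3f1 were lost without E7.0 embryo 2. Of 20 NODAL pathway genes 2 fell and none rose, among them Pmepa1, a brake on NODAL signals, by 1.96 ± 0.41 (adjusted p = 0.0211).

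By section, both E7.0 embryos held T in every library, 78.3 to 472 in embryo 1 and 478 to 1020 in embryo 2. Mesp1 was listed at 0 in sections 1 to 3 of embryo 1 and reached 442 to 529 in its last 3 sections. In embryo 2 it was already 241 in section 3. Utf1 kept 120 to 286 in sections 1 to 4 of embryo 1 and was at most 33 above them. In embryo 2 it was 38.8 and 55.1 in sections 1 and 2 and at most 18.3 above. Hoxb1 was listed at 0 in the first 3 sections of embryo 1 and the first 2 of embryo 2, and reached 10.1 to 23.8 and 19.6 to 37.8 in their last 3 sections.

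From E7.0 to E7.5 HOX and CDX genes rose, and Eomes and Lhx1 of the streak fell. Some of the genes that rose were already detected at E7.0, where Cdx1 was at 10 or more in 8 of 22 libraries. There were 51 higher genes (0.349%) and 12 lower ones (0.0822%). Without E7.0 embryo 1, the total of 63 fell to 3. It was 31 without E7.0 embryo 2, 36 without E7.5 embryo 3, 37 without E7.5 embryo 5 and 125 without E7.5 embryo 6. Blood genes were in several of these embryos too: Hba-a1 was at 375 and 180 at E7.0 and at 56.7 to 1580 at E7.5, and its part in the calls was not tested.

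Of 11 HOX genes that passed the filter on low values, of 25 listed, 8 rose and none fell, among them Hoxa2, Hoxa3, Hoxb1, Hoxb2, Hoxb3, Hoxb4 and Hoxd1. Most HOX genes pass that filter only through E7.5, where they are high, so this count is a description. Hoxb1 was at 4.62 and 16.6 at E7.0 and at 436, 197, 255 and 90.4 in E7.5 embryos 3 to 6. Every later embryo was above the earlier ones, by 5.10 ± 0.54 (adjusted p = 2.4e-05). Hoxb2 went from 1.23 and 4.39 to 88.1, 46.4, 60.2 and 41.1 (4.33 ± 0.40, adjusted p = 2.43e-06).

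On the rescaled FPKM scale, which is per length, Hoxb1 was the highest HOXB gene in each of the 4 embryos, then Hoxb2. Hoxb3 (3.06 to 5.43) and Hoxb4 (0.856 to 5.97) overlapped. In the HOXA cluster Hoxa2 was at 5 to 17.5, Hoxa3 at 1.71 to 8.08, Hoxa5 at 0.593 to 8.46 and Hoxa4 at 0.405 to 3.1. Hoxb1 (chr11:96365752-96368256, plus strand) and Hoxb2 (chr11:96350525-96354012, plus strand) lie side by side in GRCm38.

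Of the posterior axis list, 6 of 18 genes rose and none fell, with a median of 1.76 (1.64): Nkx1-2, Cdx1, Cdx2, Wnt3a, Sp8 and Grsf1. Cdx2, the caudal homeobox gene that HOX genes respond to, was at 1.17 and 7.11 and then at 34.7, 89, 138 and 40.8 (4.22 ± 0.53, adjusted p = 0.000277). Cdx1 was at 2.73 and 13.8 and then at 456, 129, 171 and 52.6 (4.64 ± 0.63, adjusted p = 0.000615). Nkx1-2, a marker of the progenitors of spinal cord and paraxial mesoderm, was at 0.12 and 2.84 and then at 59, 18.7, 50 and 13.3 (3.80 ± 0.49, adjusted p = 0.000339). None of the 3 overlapped between the stages, and each was lost without E7.0 embryo 1.

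WNT ligands rose in the same interval. Wnt3a was at 3.86 and 19.9 and then at 106, 76.3, 68.6 and 47.7 (3.14 ± 0.50, adjusted p = 0.00224). Wnt6 and the receptor Fzd10 rose too, 3 of 25 genes of the ligand and receptor list, and among the WNT targets Sp8 and Notum, a secreted WNT deacylase, rose, 2 of 20. Paraxial mesoderm genes rose in 4 of 20 cases: Tbx6, Msgn1, Hes7 and Aldh1a2. Msgn1, the bHLH gene of presomitic mesoderm, was at 0 and 3.32 and then at 237, 43.2, 140 and 17.4 (5.07 ± 0.83, adjusted p = 0.00948). Hes7, the oscillator of the segmentation clock, was at 1.16 and 39.4 and then at 341, 69.6, 115 and 45.5 (3.74 ± 0.78, adjusted p = 0.0425). Aldh1a2, which makes retinoic acid, was at 0.994 and 1.2 and then at 117, 89.6, 88.7 and only 3.71 in embryo 6 (4.66 ± 0.91, adjusted p = 0.0366).

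Gal, the precursor of the neuropeptide galanin, had the largest rise of all named genes. It was at 1.09 and 6.18 at E7.0 and at 525, 842 and 626 in E7.5 embryos 3 to 5, but at 44.4 in embryo 6. The difference was 6.88 ± 0.90 (adjusted p = 0.00142). At E5.5 and E6.0 Gal was listed at 0 in every P library. At E7.0 it was listed at 0 in 11 of 22 libraries and never above 18.6. In embryos 3 to 5 of E7.5 it was 215 or more in every section.

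Other rises belonged to several lists. Cited1, a transcriptional co-activator, went from 3.48 and 31 to 171, 94.7, 132 and 45.7 (3.89 ± 0.63, adjusted p = 0.00316). Cdkn1a, the cell cycle inhibitor p21, went from 12.6 and 15.9 to 121, 99.7, 80.5 and 43.4 (2.49 ± 0.49, adjusted p = 0.0152). Vim, vimentin of mesenchymal filaments, went from 18.7 and 27.3 to 86.6, 116, 93.9 and 64.6 (2.09 ± 0.40, adjusted p = 0.013). Klf5, listed with naive pluripotency and known too in extra-embryonic tissue, went from 1.11 and 1.33 to 30.4, 12.6, 13.9 and 6.93 (2.68 ± 0.46, adjusted p = 0.00476).

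Among the 12 genes that fell were 3 of 30 of the primitive streak list (Eomes, Lhx1 and Tdgf1) and 3 of 23 of the core and primed pluripotency list (Otx2, Fgf5 and Tdgf1). Others were Mesp2, Chrd and the Notch target Hes1, whose call was lost without section 1 of E7.5 embryo 6. Eomes was at 144 and 120 and then at 3.4, 6.25, 3.19 and 26.9 (-4.28 ± 0.67, adjusted p = 0.00275). Otx2, the homeobox gene of the primed epiblast and the future head, was at 50.1 and 17 and then at 0.974, 1.46, 1.56 and 4.96 (-3.69 ± 0.56, adjusted p = 0.00142). Fgf5, the growth factor that marks the primed epiblast, was at 65.5 and 41.8 and then at 4.2, 6.46, 8.94 and 8.59 (-2.66 ± 0.42, adjusted p = 0.0018). Lhx1, a LIM homeobox gene of the anterior streak, was at 35 and 26.8 and then at 1.05, 7.53, 1.17 and 4.22 (-3.33 ± 0.48, adjusted p = 0.000895). Tdgf1, the NODAL co-receptor Cripto, was at 622 and 380 and then at 21, 32.4, 31.9 and 198 (-3.63 ± 0.75, adjusted p = 0.0436). In each gene but Lhx1, embryo 6 or embryo 5 of E7.5 was the highest of the stage and still below both E7.0 embryos.

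Nascent mesoderm genes went down only in part. Mesp2 was at 26.6 and 54.1 and then at 0.441, 0, 1.15 and 8.32 (-3.28 ± 0.54, adjusted p = 0.00316). Mesp1 was at 205 and 524, then at 14.3, 9.62, 14.9 and 186, with an adjusted p of 0.565. Cyp26a1, which degrades retinoic acid, was at 258 and 205 and then at 2.38, 2.54, 2.41 and 61.3, and passed with equal medians (adjusted p = 0.0447) but not with equal sums (0.055). Chrd was at 35.4 and 46.7 and then at 2.84, 50.7, 4.24 and 1.87 (-1.67 ± 0.32, adjusted p = 0.013). Few libraries carried it: 8 of 22 were at 10 or more at E7.0, up to 343, and 5 of 40 at E7.5, up to 487. Of the node genes, Noto and Foxj1 were likewise highest in E7.5 embryo 4, at 41.7 and 21.1, against at most 11.6 and 6.22 in the other embryos of the stage.

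Embryo 6 of E7.5 differed from embryos 3 to 5 in several genes, some of them on the side of E7.0 and others not. Lefty2, a NODAL inhibitor, was at 114 there and at 3.02 to 8.8 in the others, after 95.5 and 209 at E7.0. Its Hoxb1, Gal, Aldh1a2 and Msgn1 were the lowest of the 4 embryos, while its T, 1370, was the highest. Its Noto (0.0513, after 22.5 and 37.4 at E7.0), Foxj1 (0.75, after 13.6 and 29), Chrd (1.87) and the cilium gene Nme5 (6.19, after 35.6 and 39.5) were also the lowest of the 4, which put them farthest from E7.0. These levels include its section 1, at the distal tip, where Scarna3b took 71.9% of the sum and so lowered all other genes. The part of that library in these levels was not tested. The labels give it the same stage as the others.

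**Figure D3:**
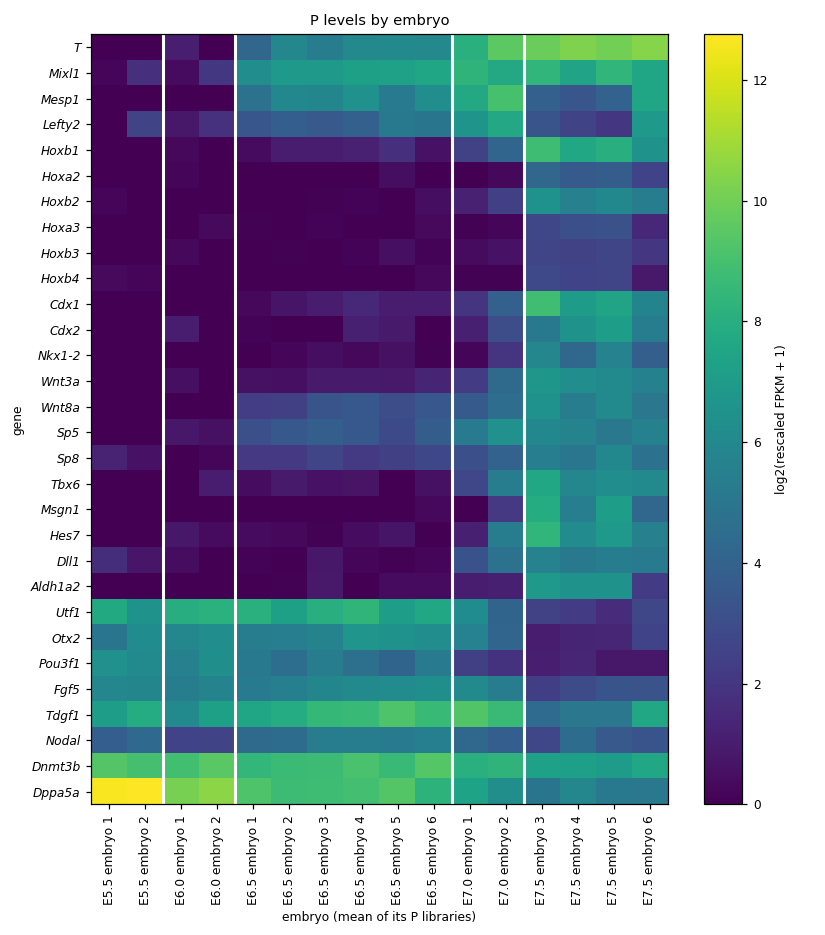
Log2(rescaled FPKM + 1) of 30 genes in the P libraries of each of the 16 embryos, with embryos in columns by stage. Streak genes come up at E6.5, and HOX and CDX genes are highest at E7.5. Embryo 6 of E7.5 keeps Mesp1 (186) and Lefty2 (114) that the other 3 embryos hold at 14.9 and 8.8 at most.

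By section at E7.5, T was at 393 or more in all 40 libraries. Mesp1 was highest at the proximal end: in embryos 3 to 5 it was at most 23.7 up to section 8 and at 19.3 to 73.3 in sections 9 and 10. In embryo 6 it climbed from 46.8 in section 2 to 378 in section 9. Section 1 of embryo 6 had 12.9, but there Scarna3b took 71.9% of the sum and so lowered all other genes. The 393 of T is from that library too. Hoxb1 was at 12.4 or more in every library, in contrast to E7.0, where 11 of 22 libraries reached 10. Section 1 of embryo 4, at the distal tip, had low Hoxb1 (12.4) and Tbx6 (6.54) beside the highest T of all P libraries (2590).

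From E6.5 to E7.5 the stages have 6 and 4 embryos, and the comparison was the least tied to single embryos. Here 683 genes rose (4.68%) and 294 fell (2.01%), and without 1 embryo the total of 977 ranged from 612 to 1006. The median over all genes was 0.19 with equal sums and 0.00 with equal medians. Of the primitive streak list 15 of 30 genes rose and 4 fell, with a median of 1.36 (1.12). T rose from 17.4 to 65.7 at E6.5 to 922, 1250, 1040 and 1370, by 6.06 ± 0.39 (adjusted p = 8.03e-10). The 4 that fell were Eomes, Gsc, Nodal and Tdgf1. Gsc, the goosecoid gene of the anterior streak, was at 17.1 to 43.5 (median 23.7) and then at 0.0266, 0, 0 and 0.232 (-4.25 ± 0.53, adjusted p = 2.99e-05).

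Posterior axis genes rose in 15 of 18 cases and none fell, with a median of 2.52 (2.26). The 10 of 11 HOX genes that rose are a description, since most pass the filter on low values only through E7.5. Nascent and paraxial mesoderm genes rose in 12 of 20 cases, with Tcf15 lower. Tbx6 rose by 5.85 ± 0.44 (adjusted p = 1.27e-08), and Dll1 and Dll3, Notch ligands of the presomitic mesoderm, by 4.99 ± 0.32 and 3.43 ± 0.41 (adjusted p = 8.03e-10 and 6.66e-06). In the Notch list 5 of 18 rose (Notch1, Dll1, Dll3, Hes7 and Nrarp) and Hes1 fell, by 2.47 ± 0.43 (adjusted p = 0.000522).

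WNT ligands and receptors rose in 12 of 25 cases (Wnt2b, Wnt3a, Wnt5a, Wnt5b, Wnt6, Wnt8a, Fzd3, Fzd10, Rspo3, Ror1, Ror2 and Wls) and Fzd7 fell, with a median of 1.18 (0.99). Wnt3, the earliest ligand, did not pass: it was at 6.99 to 20.2 and then at 14.3, 8.62, 9.94 and 22.8, with an adjusted p of 0.785. Wnt3a rose by 5.45 ± 0.37 (adjusted p = 2.27e-09). Of the WNT targets 7 of 20 rose and 2 fell, Tcf7l1 and Sfrp1.

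More NODAL pathway genes fell than rose. Of 20 genes 9 fell, among them Nodal, Gdf1, Gdf3, Tdgf1, Lefty1, Skil, Smad7 and Pmepa1, and Smad3 rose, with a median of -0.91 (-1.13). Lefty1, a NODAL inhibitor, was at 3.65 to 20 (median 7.7) and then at 0.181, 0.134, 0 and 0 (-2.66 ± 0.40, adjusted p = 0.000124). Pmepa1 fell by 3.42 ± 0.33 (adjusted p = 2.66e-07). FGF ligands split: Fgf3, Fgf4, Fgf15 and Fgf17 rose, Fgf5 fell, and Fgf8 did not pass in both scalings. Fgf4 was at 0.39 to 2.17 (median 1.69) and then at 21.9, 21.9, 20.4 and 15.3 (3.08 ± 0.46, adjusted p = 0.000108). Fgf3 was at 0.524 to 3.24 and then at 32.1, 12.8, 25.3 and 24.3 (3.27 ± 0.38, adjusted p = 4.72e-06). In all 7 of 20 FGF genes rose. In the BMP list 1 of 20 rose, Bmp4. Id1, a BMP target, passed with equal sums (adjusted p = 0.0146) and not with equal medians (0.0512).

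Retinoic acid genes rose in 4 of 13 cases, among them Aldh1a2, Rdh10 and Crabp2. Epithelial genes split, with Lama1 and Dsp higher and Crb3 and the tight junction genes Cldn3, Cldn6 and Cldn7 lower, of 21. Cldn6 was at 117 to 395 (median 208) and then at 72.9, 113, 53.8 and 36.8 (-2.46 ± 0.34, adjusted p = 3.28e-05). Of the mesenchymal list 6 of 20 rose, among them Vim (3.48 ± 0.30, adjusted p = 6.72e-08), and none fell. Cdh1 did not pass, with an adjusted p of 0.123.

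Primed pluripotency genes were also among those that fell. In the core and primed list 11 of 23 fell and 2 rose, with a median of -0.91 (-1.24). The genes that fell were Otx2, Pou3f1, Utf1, Foxd3, Fgf5, Tdgf1, Zic2, Dppa4, L1td1, Dnmt3b and Slc7a3. Etv4 was among those that rose. In the neural and anterior ectoderm list, which shares Otx2, Pou3f1 and Utf1 with it, 5 of 10 fell and 1 rose. Utf1 ended at 4.57, 3.71, 2.1 and 5.66 after 138 to 326, a fall of 5.71 ± 0.39 (adjusted p = 2.43e-09), and Otx2 fell by 4.87 ± 0.42 (adjusted p = 7.3e-08). Dnmt3b, the de novo methyltransferase of the epiblast, was at 351 to 662 (median 423) and then at 156, 145, 133 and 199 (-1.62 ± 0.27, adjusted p = 0.000318), and Dnmt3a fell by 1.5 ± 0.27 (adjusted p = 0.000697).

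The core factors did not follow. Pou5f1 was at 261 to 905 (median 538) at E6.5 and at 633, 462, 648 and 687 at E7.5, with overlap and an adjusted p of 0.845. Nanog was at 22.7 to 75 (median 45.1) and then at 25.7, 37.8, 39 and 50 (adjusted p = 0.795), and Sox2, at 7.19 to 15 and then 2.64 to 10.5, at 0.298. A p that misses the threshold does not show equal levels. Of the decidua and blood genes, 5 of 15 rose from E6.5 to E7.5, among them Hba-a1 and the beta-globin gene Beta-s, which was highest in E7.5 embryo 5, at 591. Whether blood cells took part in other calls was not tested.

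**Figure D4:**
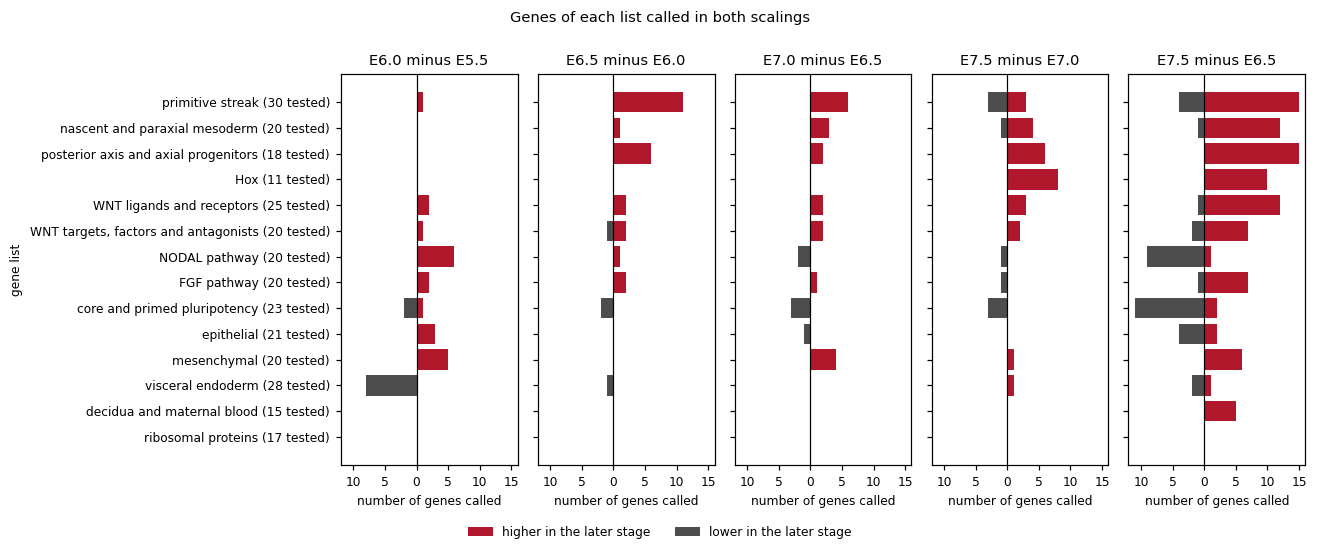
Number of genes that rose (right) or fell (left) in both scalings, for 14 gene lists and the 5 comparisons of P between stages. The streak list gives 11 rises from E6.0 to E6.5, the HOX list 8 from E7.0 to E7.5, and the NODAL list 9 falls from E6.5 to E7.5.

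Where a section held both sides, the anterior side gave a test of what changed in P relative to A. Every P section of E5.5, E6.0 and E6.5 had an A library, but only 7 of 22 at E7.0 and 19 of 40 at E7.5, so at those stages the test leaves out most P libraries. The difference P minus A was formed section by section and averaged per embryo, and its change between stages was tested in the same way. These comparisons share the P libraries with those above. From E5.5 to E6.0, with section 5 of E6.0 embryo 1 included, the P minus A difference rose for 164 genes (1.12%) and fell for 259 (1.77%). With only these 2 stages in limma's fit 0 genes passed (479 at an unadjusted p under 0.05). From E6.0 to E6.5 the difference rose for 1 gene and fell for 1 (0.00685% each), and from E6.5 to E7.0 again for 1 and 1 (0.00685% each). From E7.0 to E7.5 it rose for 25 (0.171%) and fell for 6 (0.0411%), and from E6.5 to E7.5 it rose for 222 (1.52%) and fell for 115 (0.788%).

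So the first streak genes, although they rose in P, did not pass the test of a change relative to A. Mixl1 was at 0.996 to 9.07 in A at E6.5, below every P value of the stage, and its P minus A change of 4.23 had an adjusted p of 0.0557. The change of T was 2.53, with an adjusted p of 0.557, and A held T at 0.762 to 6.33. From E6.5 to E7.0 the gene that passed upwards was Fgf3, by 3.10 (adjusted p = 0.034). It was at 0 to 0.998 in A at E6.5 and at 0 and 0.199 at E7.0.

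From E7.0 to E7.5 the HOX and CDX genes rose in P relative to A. The change was 4.88 for Hoxb1 (adjusted p = 9.71e-05) and 3.89 for Cdx2 (adjusted p = 0.0142). In A, Hoxb1 was listed at 0 in both E7.0 embryos and was at 21.9, 0.318, 1.34 and 0 in E7.5 embryos 3 to 6. Otx2 fell in P relative to A by 4.26 (adjusted p = 0.00283) with A at 65.8 to 123 and P at most 4.96 at E7.5. Msgn1 rose in P relative to A by 5.57 (adjusted p = 0.0136). The falls of Eomes and Fgf5 did not pass relative to A (adjusted p = 0.37 and 0.446).

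From E6.5 to E7.5 some genes fell on both sides. Dppa5a was at 303 to 654 in P and 370 to 600 in A at E6.5, and at 29.8 to 57.9 in P and 17.1 to 59.7 in A at E7.5. Its change in P minus A was -0.06, with an adjusted p of 0.975. Utf1 fell further in P than in A, by 3.97 (adjusted p = 4.2e-05), with A at 62.3 to 182 at E7.5. For Fgf8 the P minus A difference rose by 2.90 (adjusted p = 0.0252), although P did not rise: A went from 8.92 to 56.6 at E6.5 to 0 to 5.75 at E7.5.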

How the data were processed

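The authors deposited FPKM per gene and library (scaled by transcript length and library size), in 18 tables of 23361 genes. Per the submitters' processing notes, the tools include TopHat2 2.0.8b and Cufflinks 2.1.1 and the build is mm10; how the authors normalized beyond FPKM is not given in the sources used here. Samples were assigned to columns by name. Of 584 columns of values 115 matched no sample and were not used, 18 of them coded P. The table labelled E6.0_E6 counts as E6.5 by its sample labels. No P libraries were identical.

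Each library was rescaled to a sum of 1000000 and, as a repeat, to equal medians over 6456 genes at 1 FPKM or more in at least 80% of the P and A libraries. Values were log2(value + 1), averaged per embryo. Stages were compared with limma 3.58.1 (R 4.3.3, trend and robust moderation) in 1 fit over the 16 embryos, for the 14594 genes with a mean of at least 1 in at least 1 stage, with Benjamini-Hochberg adjustment. Genes counted only where the adjusted p was under 0.05 in the same direction in both scalings. P minus A was the mean difference over sections that hold both. The depth per library is unknown from FPKM, and no interval from counts was computed. Named genes were, per comparison, up to 10 higher and 10 lower called genes with the largest change (log2 difference of at least 1 in both scalings, no overlap between embryos, a level of at least 5, predicted genes left out), up to 3 called members per list, and a set of 26 named throughout. Genes outside this rule (Hoxa2 to Hoxa5, Hoxb3, Hoxb4, Hoxd1, Zeb2 and several E7.5 minus E6.5 genes) complete a list and were chosen after their values were seen, and a few genes the rule names are not reported here. The 29 lists hold 491 genes, of which 489 are in the tables. The members and lists were chosen with earlier results of these data known. Scripts were tested on simulated data. Alternatives were the scaling, pseudocount, filter, averaging, moderation, libraries and embryos used, and 3 libraries left out in turn, the last chosen after seeing the data. Promoters came from RefSeq (GRCm38.p6), gene positions from GENCODE M21.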

Additional observations from a re-analysis of the deposited data

Results flagged for a closer look

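A single embryo lay far from the others of its stage in 14 of the 171 groups of 4 or 6 embryos looked at. A share of about 1 in 20 by chance would hold only for independent groups. Since 7 of the 14 were of E7.5 embryo 6, the 14 cannot be set against that share. At E7.5, embryo 6 was low in Aldh1a2 (3.71 against 88.7 to 117), Dand5 (6.2 against 26.2 to 49.2), Gal (44.4 against 525 to 842), Nme5 (6.19 against 24.9 to 73.9) and Rhox5 (9.12 against 33.7 to 39.2). It was high in Lefty2 (114 against 3.02 to 8.8) and Tdgf1 (198 against 21 to 32.4). Embryo 4 was low in Pou5f1 (462 against 633 to 687). At E6.5, embryo 1 was low in Ccnd2 (6.92 against 13.2 to 16.6), Evx1 (2.78 against 8.82 to 9.79) and Wnt3 (6.99 against 14.6 to 20.2) and high in Mt2 (438 against 153 to 212). Embryo 4 of that stage was high in Fxyd6 (37.6 against 18.3 to 23.2) and embryo 6 low in Ifitm1 (52.7 against 59.4 to 78.2). Values are rescaled FPKM, with the range of the other embryos after each.

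The change between stages differed between the posterior and the anterior side for 60 of the named results given here, by limma's test of the change of P minus A in both scalings (log2 differences, equal sums). These share the P libraries with the comparisons of P alone, and those to E7.5 share the E7.5 embryos with each other. From E5.5 to E6.0 P moved up relative to A in Ska2 (1.70), and down in Eno1 (-3.53), Fgf5 (-1.94), Foxh1 (-2.27), Gtsf1l (-2.61) and Mylpf (-2.55). This comparison includes section 5 of E6.0 embryo 1, where P nearly lacked epiblast genes and Fgf5 was listed at 0. The part of that library in these changes was not tested gene by gene. With only these 2 stages in limma's fit none passed. From E6.5 to E7.0 P moved up relative to A in Fgf3 (3.10). From E7.0 to E7.5 P moved up relative to A in Aldh1a2 (4.88), Cdx1 (3.68), Cdx2 (3.89), Cited1 (4.78), Dand5 (4.09), Gal (6.53), Hoxb1 (4.88), Hoxb2 (4.71), Msgn1 (5.57), Nkx1-2 (3.36) and Wnt3a (2.62), and down in Mesp2 (-2.86), Otx2 (-4.26) and Pkdcc (-3.26). From E6.5 to E7.5 P moved up relative to A in Aldh1a2 (4.85), Car3 (3.38), Cdkn1a (2.58), Cdx1 (5.65), Cdx2 (5.51), Cited1 (4.87), Dand5 (2.56), Dll1 (3.76), Dll3 (3.70), Fgf15 (4.50), Fgf3 (3.46), Fgf4 (4.74), Fgf8 (2.90), Frzb (3.88), Fzd10 (3.00), Gal (6.28), Hes7 (5.56), Hoxb1 (6.57), Hoxb2 (5.44), Ifitm1 (2.41), Klf5 (2.97), Lmo2 (2.02), Mixl1 (3.43), Msgn1 (5.57), Sp5 (2.45), T (4.05), Tbx6 (5.53), Vim (2.25), Wnt3a (5.21) and Wnt8a (3.28), and down in Cldn6 (-3.25), Cldn7 (-1.62), Crb3 (-2.47), Dnmt3b (-1.21), Fgf5 (-1.41), Gsc (-2.95), Otx2 (-4.87), Pou3f1 (-2.60) and Utf1 (-3.97).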

How the results depend on the processing

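Over all alternatives, 17316 values of single named genes were recomputed: 16332 stayed on their side of the threshold, 831 lost and 153 gained a call, and 0 changed sign while called. The totals below are of genes higher and lower together, and main totals were 1975, 43, 109, 63 and 977 for the 5 comparisons in order of stage (E7.5 minus E6.5 last) and 423, 2, 2, 31 and 337 for P minus A. The cause of the shifts was not tested, except where fewer embryos enter the fit.

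For P, E6.0 minus E5.5 gave 330 genes with FPKM as deposited, 3772 with a pseudocount of 0.1, 795 with 5, 711 with log2 of the embryo mean and 0 with only these 2 stages. E7.0 minus E6.5 gave 63 with a pseudocount of 0.1 and 59 with log2 of the embryo mean. E7.5 minus E7.0 gave 36 and 28 under the same 2 settings and 30 with only its 2 stages, and E7.5 minus E6.5 gave 635 with log2 of the embryo mean. Leaving out 5 embryos (E7.5 embryo 3 and E6.5 embryos 1 to 4) gave totals of 1155, 3, 4, 7 and 118. Equal sums alone gave 2530 higher and 112 lower genes from E5.5 to E6.0 and equal medians alone 1907 and 303. From E6.5 to E7.5 they gave 978 and 305, and 684 and 561. From E6.5 to E7.0 they gave 87 and 35, and 80 and 67.

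For P minus A, in limma, E6.0 minus E5.5 gave 700 with equal medians only, 1088 with FPKM as deposited, 0 with only its 2 stages (479 at an unadjusted p under 0.05) and 0 without those 5 embryos (1322). E6.5 minus E6.0 gave 1 with FPKM as deposited, a pseudocount of 0.1, a mean of at least 5, only its 2 stages or without section 1, and 0 with a pseudocount of 5 (899) or without those 5 embryos (293). E7.0 minus E6.5 gave 5 with equal sums only or a pseudocount of 5, 6 with a mean of at least 5, 17 without section 1, 14 without trend and robust moderation, 7 without section 5 of E6.0 embryo 1 and 1 with only its 2 stages. It gave 0 with FPKM as deposited (940), with log2 of the embryo mean (545) and without those 5 embryos (258). E7.5 minus E7.0 gave 50 with FPKM as deposited, 49 with a pseudocount of 5 or without trend and robust moderation, 7 with log2 of the embryo mean, 0 with only its 2 stages (656) and 2 without those 5 embryos. E7.5 minus E6.5 gave 141 with log2 of the embryo mean, 528 with only its 2 stages and 12 without those 5 embryos.

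Without 1 embryo, E6.0 minus E5.5 gave 763 (E6.0 embryo 1) to 2879 (E5.5 embryo 2). E6.5 minus E6.0 gave 22 (E6.5 embryo 3 or 4) to 440 (E6.0 embryo 2), with 27 without E6.5 embryo 2 and 28 without E6.0 embryo 1 or E6.5 embryo 6. E7.0 minus E6.5 gave 10 (E7.0 embryo 2) to 113 (E6.5 embryo 5), E7.5 minus E7.0 gave 3 (E7.0 embryo 1) to 125 (E7.5 embryo 6), and E7.5 minus E6.5 gave 612 (E7.5 embryo 5) to 1006 (E6.5 embryo 5). For P minus A the ranges were 107 (E6.0 embryo 1) to 1794 (E5.5 embryo 2), 0 (E6.5 embryo 2, with 731 at an unadjusted p under 0.05) to 113 (E6.0 embryo 2), 0 (E6.5 embryo 1, 697) to 79 (E7.0 embryo 2), 7 (E7.0 embryo 1) to 200 (E7.0 embryo 2) and 231 (E7.5 embryo 5) to 311 (E7.5 embryo 3).

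With a replicate block on the embryo number the totals were 75 for E6.5 minus E6.0, 1 for E7.5 minus E7.0 and 614 for E7.5 minus E6.5, and 21, 0 (342), 0 (427), 0 (483) and 86 for P minus A. Embryos of different stages are different embryos, so the numbers share only a name and pair nothing.

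The reads behind each FPKM are unknown, and E5.5, E6.0 and E7.0 have 2 embryos each, so a gene that missed the threshold there was not detectable as changed with this number of embryos.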
